A study of Mus musculus with 6 samples.

Results

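Expression of the Eph receptors and ephrins of intestinal crypts was compared between adenomas of 2 *Apc*-mutant mouse models. The set comprised 9 genes, the receptors *Ephb2*, *Ephb3*, *Ephb4*, *Ephb6*, *Epha1* and *Epha2* and the ligands *Efna1*, *Efnb1* and *Efnb2*, out of 34866 genes in the count table. They were chosen by name, and each was found by its Ensembl identifier. The tumours were intestinal adenomas excised from C57BL/6J mice aged between 100 and 120 days, either Apc1322T/+ (3 libraries) or ApcMin/+ (3 libraries), and RNA of several extractions from a mouse was typically pooled for a sample. Both alleles are germline mutations, so that each mouse was born with a mutant and a wild-type copy of *Apc*. ApcMin encodes a short truncation with little function, whereas the Apc1322T truncation is longer and keeps some of its binding sites for β-catenin. The labels give no sex, and no normal tissue was analysed here. The adenomas were sequenced whole, so that fewer cells of a type and less RNA per cell cannot be told apart.

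Eph receptors are receptor tyrosine kinases that bind ephrins on neighbouring cells. Ephrin-A ligands are anchored to the membrane by a lipid and ephrin-B ligands span it, and on contact both the receptor-bearing and the ligand-bearing cell can respond, often by repulsion. In the normal intestine *Ephb2* and *Ephb3* are targets of β-catenin and TCF and are highest at the crypt base, while *Efnb1* and *Efnb2* rise towards the villus. This opposed arrangement keeps proliferating and differentiated cells apart and places Paneth cells at the crypt base.

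The 6 libraries held between 23132461 and 33518324 estimated counts. Levels are given as CPM, a count divided by the TMM-scaled library size. The smallest detectable signal was taken as 3 counts (counting error only). Divided by the library size without TMM scaling, 3 counts were worth 0.0895 to 0.130 CPM. All 9 genes passed the filter on low counts, with between 114 counts (*Ephb6*) and 5581 counts (*Ephb3*) per library, and were among the 16536 genes tested. The tissue label was checked by markers of intestinal epithelium. The 6 pan-epithelial genes (*Epcam*, *Cdh1*, *Krt8*, *Krt18*, *Krt19* and *Cldn7*) summed to between 11953 and 13360 CPM in Apc1322T and between 9863 and 10997 CPM in ApcMin adenomas, without overlap. Other cell types were measured by their own markers. Endothelial markers summed to between 126 and 200 CPM in Apc1322T and between 183 and 271 CPM in ApcMin adenomas, fibroblast markers to between 450 and 1108 against between 699 and 2393 CPM, and squamous markers to between 4.94 and 7.05 against between 32.2 and 42.6 CPM. ApcMin replicates 1 and 2 held 193 and 161 CPM of the distal markers *Fabp6* and *Slc10a2*, against between 4.44 and 9.15 CPM in the other libraries.

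None of the 9 genes differed between ApcMin and Apc1322T adenomas beyond the spread of the libraries. The receptors *Ephb2*, *Ephb3* and *Epha2*, with at least 2111 counts in every library, had log2 fold changes of -0.039, 0.0061 and -0.028. The largest differences were those of *Epha1*, with a log2 fold change of -0.43, and *Efna1*, with -0.28, and both lay within the error. Summed over the 9 genes the level was 815, 807 and 792 CPM in Apc1322T and 731, 759 and 789 CPM in ApcMin libraries. With this TMM scaling the sums did not overlap, but the nearest libraries, at 792 and 789 CPM, were almost equal. At a threshold of 0.01 on the adjusted p of edgeR's test, 0 of the 9 genes passed, where the background was 0 of 16536 genes, or 0%. At an unadjusted p under 0.05 there were also 0 of the 9, against 15.1% of all genes tested. With DESeq2's Wald test 0 of the 9 passed an adjusted p under 0.01, against 1.11% of the genes with an adjusted p. For 0 of the 9 genes did the libraries of one genotype lie wholly above those of the other, against 21.0% of all genes tested. Of the 9 genes 3 had a fold change above 0 (higher in ApcMin) and 6 below, with a median log2 fold change of -0.039 and a range from -0.43 to 0.098. The median over all genes tested was 0.017.

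**Figure D1:**
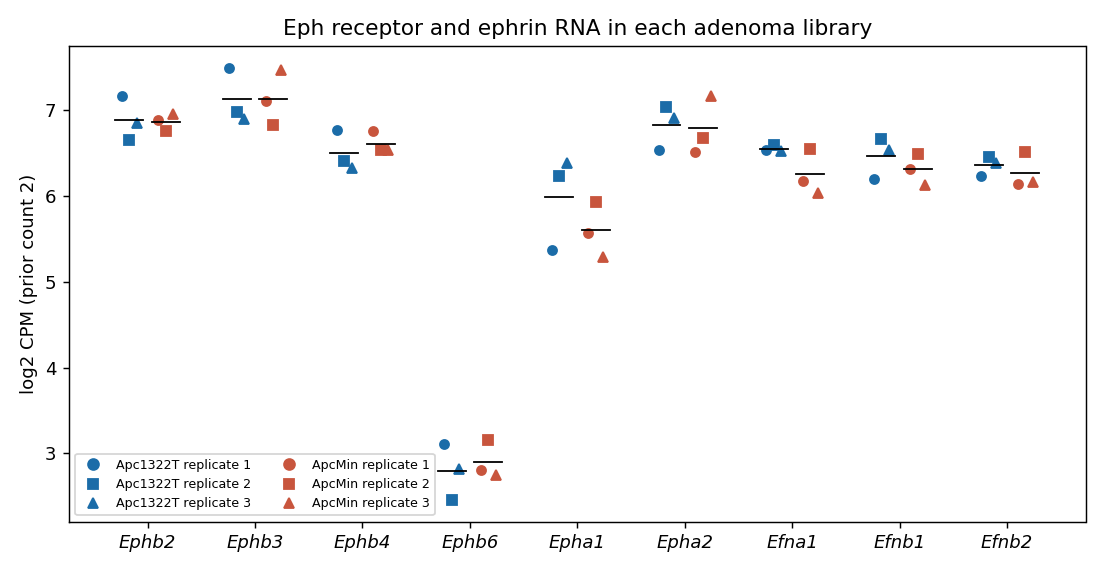
Log2 CPM (vertical axis, prior count 2) of the 9 genes (horizontal axis) in each of the 3 Apc1322T (blue) and 3 ApcMin (red) libraries, with marker shape for the replicate and a black line at the mean. The genotypes overlap for every gene, and *Ephb6*, from 2.46 to 3.16, lies below all others.

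The precision of these comparisons was limited by 3 libraries per genotype. The 95% interval of the log2 fold change reached from -0.38 to 0.30 for *Ephb2* and from -0.52 to 0.53 for *Ephb3*, so that changes beyond these bounds lay outside it. For *Epha1* it was widest, from -1.14 to 0.27. As the pan-epithelial markers were lower in ApcMin adenomas, the comparison was repeated with the libraries scaled to their summed counts, an alternative chosen after the data were seen. On this scale 8 of the 9 genes had a log2 fold change above 0, with *Epha1* the exception, and the median over all genes tested also moved, to 0.33. Relative to that median, 2 of the 9 genes lay above it and 7 below, as many as with the original scaling. Again 0 of the 9 passed the threshold in edgeR's test, where the smallest adjusted p was 0.170 (*Ephb4*). *Efnb2*, at a log2 fold change of 0.23 (SE 0.11), was the single gene whose libraries did not overlap on this scale, which held for 37.8% of all genes tested.

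**Figure D2:**
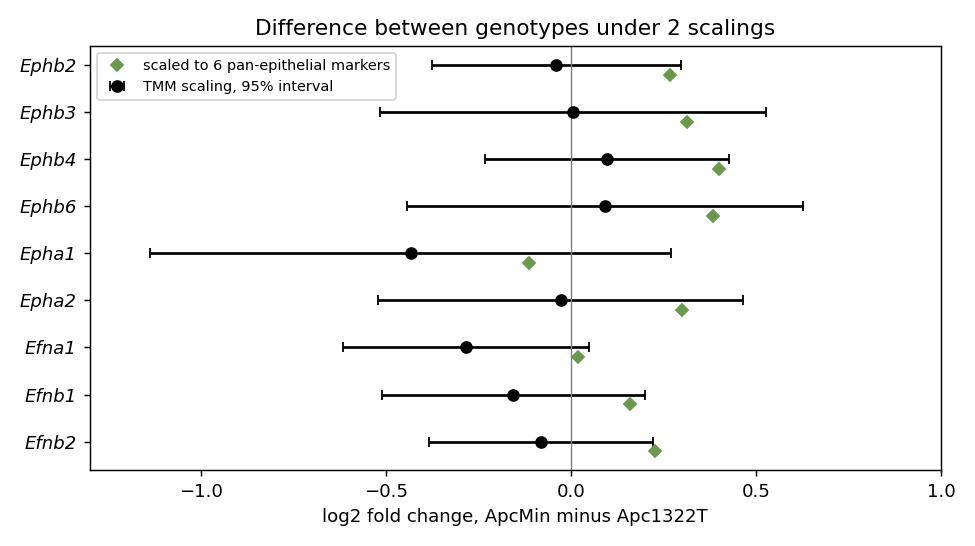
Log2 fold change of each gene (horizontal axis, ApcMin minus Apc1322T) with its 95% interval under TMM scaling (black), and the value when the libraries were scaled to 6 pan-epithelial markers (green diamonds). All 9 intervals include 0, and the diamonds lie to the right of the black points for every gene.

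The promoters of these genes were read from RefSeq (GRCm38), which gave 10 windows for the 9 genes, with *Efna1* having 2 start sites. In the 250 bases before the start, the TCF/LEF core CTTTGA or CTTTGT on either strand occurred in 1 of the 10 windows, that of *Epha2*, and in 27.6% of the 32851 windows of all genes. The windows of *Ephb2* and *Ephb3*, the β-catenin targets of the set, did not hold these letters, which says nothing of more distant elements. The 8 bases GGGCGTGG, a GC-rich box of the kind bound by Sp and Krüppel-like factors, were noticed on reading the sequences. On either strand they occurred in 4 of the 10 windows (*Ephb2*, *Ephb3*, *Epha2* and *Efnb1*) and in 4.79% of all windows. As the 8 bases were picked from these same 10 windows, a comparison with other windows cannot show an enrichment. The 10 windows were rich in GC, from 54.4 to 76.8%, against a median of 52.4% over all windows. Of all windows in that range of GC, 9.16% held the 8 bases and 17.6% the TCF/LEF core. In *Ephb2* they were found in both orientations, beginning 106 and 39 bases before the start. They began 96 bases before the start in *Ephb3*, 47 in *Epha2* and 50 in *Efnb1*. The 4 windows with the shared box are printed 5′ to 3′ on the strand of the gene, to show where it lies. Capitals mark the box and, in *Epha2*, also the TCF/LEF core that begins 209 bases before the start. They are *Ephb2* (chr4:136836013-136836262, minus strand), *Ephb3* (chr16:21204545-21204754, plus strand, without the last bases before the RefSeq start, which GENCODE counts as transcribed), *Epha2* (chr4:141300971-141301220, plus strand) and *Efnb1* (chrX:99135811-99136060, plus strand).
Ephb2: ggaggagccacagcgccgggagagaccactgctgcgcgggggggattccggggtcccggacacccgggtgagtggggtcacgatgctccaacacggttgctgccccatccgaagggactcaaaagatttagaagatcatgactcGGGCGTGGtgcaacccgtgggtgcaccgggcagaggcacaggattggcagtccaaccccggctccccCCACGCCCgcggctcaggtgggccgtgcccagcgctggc
Ephb3: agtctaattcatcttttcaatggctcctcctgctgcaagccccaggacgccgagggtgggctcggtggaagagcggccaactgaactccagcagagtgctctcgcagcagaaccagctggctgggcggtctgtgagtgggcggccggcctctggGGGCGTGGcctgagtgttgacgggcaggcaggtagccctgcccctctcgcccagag
Epha2: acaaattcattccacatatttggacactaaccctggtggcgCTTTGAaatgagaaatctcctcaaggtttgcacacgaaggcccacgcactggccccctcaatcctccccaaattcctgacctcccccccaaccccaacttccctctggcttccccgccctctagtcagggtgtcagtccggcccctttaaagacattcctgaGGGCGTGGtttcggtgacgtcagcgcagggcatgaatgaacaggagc
Efnb1: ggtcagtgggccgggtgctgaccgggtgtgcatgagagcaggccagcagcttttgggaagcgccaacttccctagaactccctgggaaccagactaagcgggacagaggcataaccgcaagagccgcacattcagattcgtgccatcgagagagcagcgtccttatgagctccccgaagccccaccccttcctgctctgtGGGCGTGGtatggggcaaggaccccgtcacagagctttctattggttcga

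Among the EphB receptors, *Ephb2* and *Ephb3* varied more between mice of the same genotype than between the genotypes. *Ephb2*, which encodes a receptor of crypt base and progenitor cells, lies on chromosome 4 from 136647539 to 136835988. Levels of 7.16, 6.65 and 6.85 log2 CPM were measured in Apc1322T replicates 1, 2 and 3, and of 6.88, 6.75 and 6.95 in ApcMin replicates 1, 2 and 3. Both the highest and the lowest library were thus Apc1322T, and the ApcMin values lay between them. The log2 fold change was -0.039 (SE 0.14, adjusted p = 0.909 in edgeR's test), and it turned to 0.12 without Apc1322T replicate 1 and to 0.013 without ApcMin replicate 2. *Ephb3*, which encodes the receptor that places Paneth cells, lies on chromosome 16 from 21204755 to 21223305. The libraries held 7.49, 6.98 and 6.90 log2 CPM in the Apc1322T and 7.10, 6.83 and 7.46 in the ApcMin libraries. A single library of each genotype, Apc1322T replicate 1 and ApcMin replicate 3, stood above the rest. The means were 7.12 ± 0.32 and 7.13 ± 0.32 (SD, n = 3 each), and the log2 fold change of 0.0061 (SE 0.22) had no stable direction, with values from -0.18 to 0.22 when single libraries were left out. Of the 5 Paneth cell markers 3 had a log2 fold change above 0 and 2 below. By edgeR's and DESeq2's tests 0 of them passed, and 1 had an unadjusted p under 0.05 with edgeR. Their summed level was between 1531 and 2272 CPM in Apc1322T and between 2230 and 2609 CPM in ApcMin adenomas.

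*Ephb4*, which is known for venous endothelium as well as epithelium, lies on chromosome 5 from 137350109 to 137378669, where exons of *Zan* overlap it on the other strand, and log2 CPM values were 6.77, 6.40 and 6.33 in Apc1322T and 6.75, 6.53 and 6.54 in ApcMin adenomas. Apc1322T replicate 1 and ApcMin replicate 1 had nearly equal values at the top, and Apc1322T replicates 2 and 3 were the lowest. Its log2 fold change of 0.098 (SE 0.14) was above 0 in all fits, from 0.011 to 0.25 with single libraries left out. Venous markers summed to between 23.9 and 31.1 CPM in Apc1322T and between 20.0 and 46.8 CPM in ApcMin adenomas, which overlapped. All 8 endothelial markers were present and had a log2 fold change above 0, with 0 past the threshold in edgeR's test (1 at an unadjusted p under 0.05) and 1, *Cdh5*, with DESeq2. Their part in the level of *Ephb4* was not tested. *Ephb6*, on chromosome 6 from 41605482 to 41620509, encodes a receptor without kinase activity that is also known from T cells. It was the least abundant of the 9 genes, with 233, 114 and 160 counts in Apc1322T and 247, 225 and 210 counts in ApcMin libraries. Its log2 CPM was highest in ApcMin replicate 2 (3.16) and lowest in Apc1322T replicate 2 (2.46). The 5 T cell markers summed to 7.67, 22.2 and 32.2 CPM in Apc1322T and 17.1, 15.1 and 9.55 CPM in ApcMin libraries, and their part in the level of *Ephb6* was not tested.

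*Epha1* showed the widest spread of all. It encodes an epithelial receptor and lies on chromosome 6 from 42358487 to 42373268, and exons of *Zyx* overlap it on the opposite strand. As strand use in the counting is not given, reads of such pairs may not have been told apart. The values were 5.37, 6.23 and 6.38 in Apc1322T and 5.57, 5.93 and 5.29 log2 CPM in ApcMin adenomas. Apc1322T replicate 1 fell among the ApcMin values, while the other 2 Apc1322T libraries stood above all ApcMin libraries. The log2 fold change was -0.43 (SE 0.29, adjusted p = 0.490 in edgeR's test) and reached -0.68 without Apc1322T replicate 1, with an unadjusted p of 0.0145 and an adjusted p of 0.121 in the same test. The adjusted p ranged from 0.121 to 0.807 over all alternatives. Its SD over the 6 libraries was 0.45, and 73.1% of all genes tested had a smaller SD. *Epha2*, which encodes a receptor of *Efna1* and is widely raised in epithelial tumours and wounds, lies on chromosome 4 from 141301240 to 141329384. It had log2 CPM values of 6.53, 7.04 and 6.91 in Apc1322T and 6.51, 6.67 and 7.17 in ApcMin adenomas. ApcMin adenomas held both the lowest and the highest value. The log2 fold change of -0.028 (SE 0.21) turned positive in 4 of the 6 fits with a library left out.

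With TMM scaling all 3 ephrins had lower means in ApcMin adenomas, by less than their error allows to call. Scaled to pan-epithelial markers, all 3 had log2 fold changes above 0 (*Efna1* 0.019, *Efnb1* 0.16 and *Efnb2* 0.23). *Efna1*, the main ligand of *Epha2*, lies on chromosome 3 from 89271733 to 89281142. It was nearly constant in Apc1322T adenomas, at 6.53, 6.59 and 6.52, and varied in ApcMin adenomas, at 6.17, 6.55 and 6.03 log2 CPM. ApcMin replicate 2 fell within the Apc1322T values and the other 2 ApcMin libraries below them. The log2 fold change was -0.28 (SE 0.14, unadjusted p = 0.0836 and adjusted p = 0.375 in edgeR's test). Without ApcMin replicate 2 it was -0.45, the genotypes no longer overlapped, the unadjusted p was 0.0040 and the adjusted p was 0.382, within a range from 0.331 to 0.916 over all alternatives. *Efnb1*, a ligand of the EphB receptors encoded on chromosome X from 99136130 to 99148991, had log2 CPM values of 6.19, 6.66 and 6.53 in Apc1322T and 6.32, 6.48 and 6.13 in ApcMin adenomas. Apc1322T replicate 1 and ApcMin replicate 3 were its lowest libraries. *Efnb2*, a ligand of *Ephb4* and a marker of arterial endothelium as well as of villus epithelium, lies on chromosome 8 from 8617434 to 8661242. Its values were 6.23, 6.45 and 6.38 in Apc1322T and 6.13, 6.51 and 6.16 in ApcMin adenomas, and its SD over the 6 libraries, 0.16, was the smallest of the 9 genes, with 29.5% of all genes tested below it. The fold changes were -0.15 (SE 0.15) for *Efnb1* and -0.080 (SE 0.13) for *Efnb2*, with adjusted p of 0.623 and 0.774 in edgeR's test. Of the 4 arterial markers *Sox17* stood out, with 441, 192 and 156 counts in Apc1322T against 1752, 2554 and 5491 in ApcMin libraries, while *Gja5*, *Gja4* and *Dll4* had log2 fold changes of 0.71, 0.18 and -0.060, each with overlapping libraries. *Sox17* did not pass edgeR's test (adjusted p = 0.257) but passed DESeq2's. The part of arterial cells in the level of *Efnb2* was not tested.

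The libraries were ordered alike by several of the genes, across the genotypes. *Ephb2*, *Ephb3* and *Ephb4* had their 3 highest values in Apc1322T replicate 1, ApcMin replicate 1 and ApcMin replicate 3, which held for 12.3% of all genes tested. *Epha1*, *Efnb1* and *Efnb2* had their 3 lowest values in the same libraries, as did 12.5% of all genes tested. This order was noticed in the data and is given as a description. The ratio of EphB receptors to ephrin-B ligands, each summed as CPM per kilobase of merged exon, was accordingly highest in Apc1322T replicate 1 (1.99), ApcMin replicate 3 (1.87) and ApcMin replicate 1 (1.64). It was 1.10 and 1.18 in Apc1322T replicates 2 and 3 and 1.22 in ApcMin replicate 2. The values of the genotypes overlapped.

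**Figure D3:**
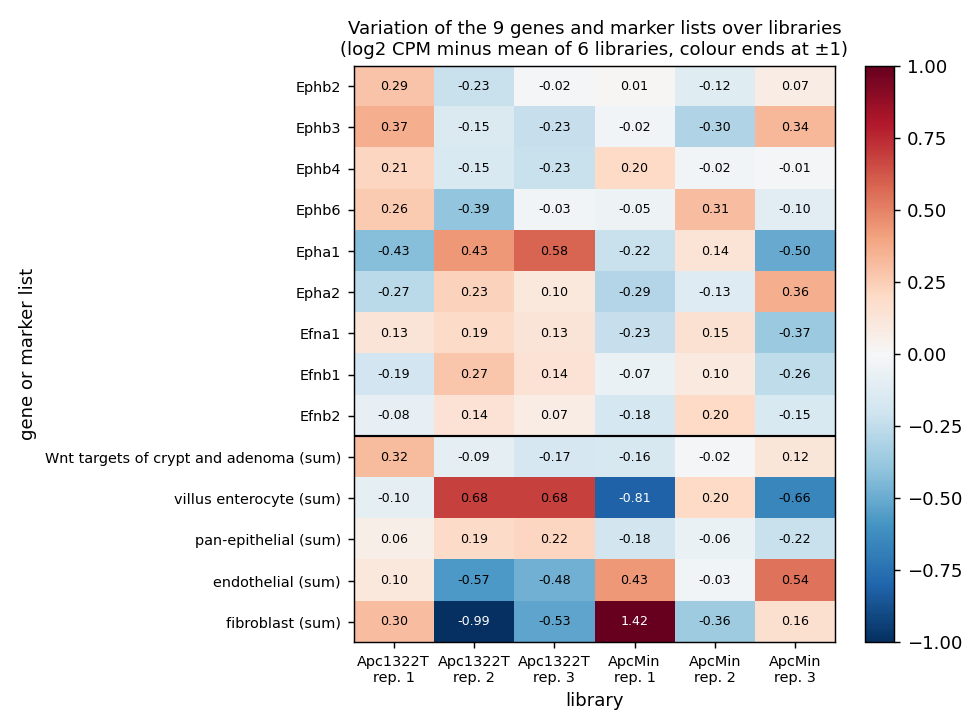
Log2 CPM of each gene, and of the summed CPM of 5 marker lists below the black line, minus its mean over the 6 libraries (rows are genes or lists, columns are libraries, red is above the mean and blue below). *Ephb2*, *Ephb3* and *Ephb4* are highest, and *Epha1*, *Efnb1* and *Efnb2* lowest, in Apc1322T replicate 1 and ApcMin replicates 1 and 3, where villus enterocyte markers are also lowest.

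The genes were set against the summed levels of 3 marker lists over the 6 libraries, which gave 27 relations. Villus enterocyte markers, all 10 of which had a log2 fold change below 0 (0 past the threshold with edgeR or DESeq2, 2 at an unadjusted p under 0.05 with edgeR), ranged from 18260 to 31455 CPM in Apc1322T and from 11175 to 22542 CPM in ApcMin adenomas. *Epha1* was higher where they were higher (Pearson's r = 0.87, p = 0.0472, and Spearman's rho = 0.77, p = 0.103, exact permutation tests, two-sided). For *Efnb1* r was 0.82 (p = 0.0653) and rho 0.83 (p = 0.0583), and for *Efnb2* r was 0.86 (p = 0.0542) and rho 0.83 (p = 0.0583, exact permutation tests). *Efna1* had an r of 0.87 (p = 0.0319) and a rho of 0.77 (p = 0.103, exact permutation tests). *Ephb4* went the other way, with an r of -0.76 and a rho of -0.77 (p = 0.103 for both, exact permutation tests). So did *Ephb2*, with an r of -0.49 (p = 0.3375) and a rho of -0.71 (p = 0.136, exact permutation tests). For *Ephb3* r was -0.60 (p = 0.222) and rho -0.54 (p = 0.297, exact permutation tests). ApcMin replicates 1 and 3, the 2 libraries farthest from the median of the markers, were then left out. Over 4 libraries r was 0.97 for *Epha1*, 0.90 for *Efnb1*, 0.53 for *Efnb2* and 0.39 for *Efna1*. For *Ephb4*, *Ephb2* and *Ephb3* it was -0.96, -0.76 and -0.69. The relation of *Efna1* thus rested largely on ApcMin replicates 1 and 3. With the 12 Wnt targets, *Ephb3* had an r of 0.81 (p = 0.0611) and a rho of 0.60 (p = 0.242), and *Ephb2* an r of 0.76 (p = 0.0764) and a rho of 0.54 (p = 0.297, exact permutation tests). Without Apc1322T replicate 1 and ApcMin replicate 3 these turned to -0.62 and -0.64, so that both rested on these libraries. Endothelial markers were highest in Apc1322T replicate 1 and ApcMin replicates 1 and 3, the libraries where villus enterocyte markers were lowest. The relations with endothelial markers are thus not separate from those with villus enterocyte markers. With the 8 endothelial markers, *Epha1* had an r of -0.91 (p = 0.0250) and a rho of -0.89 (p = 0.0333), and *Efnb1* an r of -0.88 (p = 0.0347) and a rho of -0.94 (p = 0.0167, exact permutation tests). *Efna1* had an r of -0.84 (p = 0.0611) and a rho of -0.83 (p = 0.0583), and *Efnb2* an r of -0.80 (p = 0.0806) and a rho of -0.77 (p = 0.103, exact permutation tests). Without Apc1322T replicates 2 and 3, r was -0.65 for *Epha1*, -0.64 for *Efnb1*, -0.98 for *Efna1* and -0.84 for *Efnb2*. *Ephb4*, an endothelial gene itself, had an r of 0.72 with them (p = 0.118) and a rho of 0.71 (p = 0.136, exact permutation tests). This direction was not particular to *Ephb4*. *Ephb2* had an r of 0.54 (p = 0.268) and a rho of 0.77 (p = 0.103, exact permutation tests). *Ephb3* had an r of 0.63 (p = 0.190) and a rho of 0.60 (p = 0.242, exact permutation tests). Without Apc1322T replicates 2 and 3, r was 0.034 for *Ephb4*, 0.084 for *Ephb2* and 0.46 for *Ephb3*. After Benjamini-Hochberg adjustment over the 27 relations, none passed 0.05, and the smallest adjusted p was 0.218 for r and 0.252 for rho (exact permutation tests). A genotype holds too few libraries, 3, for values within it, and the points share library and scaling.

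Levels of different genes were compared as CPM per kilobase, with the merged exons of GENCODE M21 as length. By the median of the 6 libraries *Efna1* was highest, at 50.4 CPM per kilobase (35.7 to 52.5), followed by *Efnb1* (24.5), *Epha2* (23.7), *Ephb4* (19.9), *Ephb3* (19.9), *Epha1* (13.8), *Efnb2* (11.6), *Ephb2* (9.26) and *Ephb6* (1.84). *Efna1* lay above *Efnb1*, and *Ephb2* above *Ephb6*, in 6 of 6 libraries and without overlap of their ranges. All other neighbours in this order overlapped. The order depends on the length taken. *Ephb2* has 12608 bases of merged exon but a mean of 5047 bases over its 4 coding transcripts, with which its median would be 23.1 CPM per kilobase, and that of *Ephb3* 51.1. By this median *Efna1* was again first, at 61.2, and *Ephb6* last of the 9, at 3.29. The lead of *Efna1* over *Ephb3* did not hold in both genotypes with this length. Mean CPM per kilobase was 62.1 for *Efna1* and 55.0 for *Ephb3* in Apc1322T, but 51.1 and 55.2 in ApcMin adenomas.

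**Figure D4:**
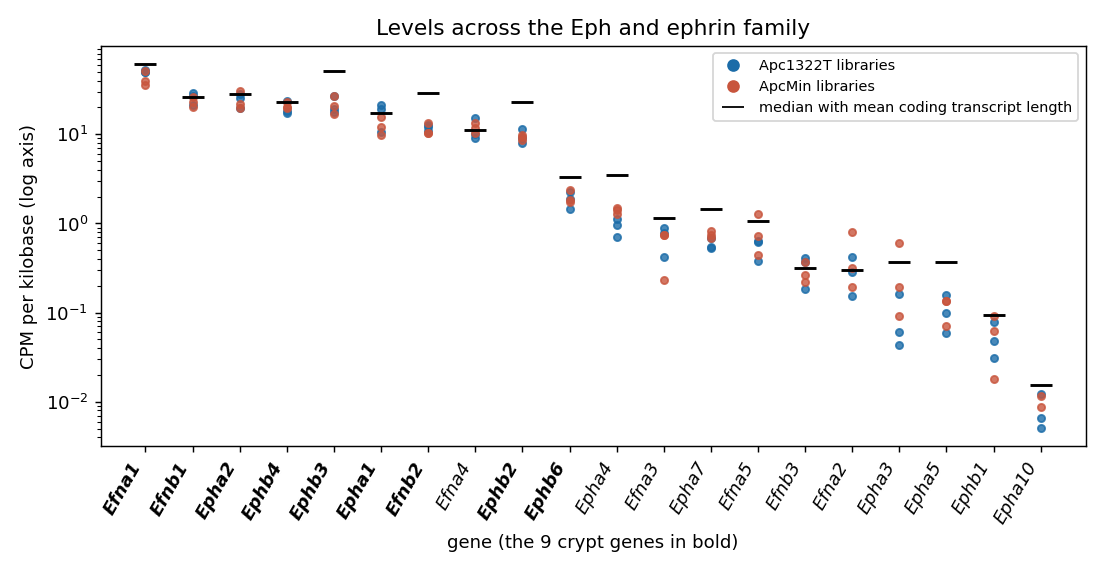
CPM per kilobase (log axis) of the genes of the Eph and ephrin family in each Apc1322T (blue) and ApcMin (red) library, in order of the median, with the 9 crypt genes in bold and black dashes for the median with the mean coding transcript length. A value of 0 is not drawn, and *Epha6* and *Epha8*, whose median is 0, are left out. With merged exon lengths the medians of the 9 genes and *Efna4* lie above those of all other members of the family.

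The other 13 genes of the family were far less abundant, apart from *Efna4*. The 9 crypt genes made up between 90.1 and 93.5% of the CPM per kilobase of all 22 genes. *Efna4*, an ephrin-A ligand, had a median of 11.1 CPM per kilobase, between *Efnb2* and *Ephb2*. The next was *Epha4*, below *Ephb6* with merged exons as length, but above it with the mean coding transcript, at 3.46 CPM per kilobase. Of the 13 genes 10 were tested, of which 8 had a log2 fold change above 0 and 2 below, with a median of 0.24. By edgeR's and DESeq2's tests 0 passed. With edgeR 1 of the 10 had an unadjusted p under 0.05, against 15.1% of all genes tested, and 1 of the 10 was without overlap, against 21.0%, so that neither count exceeded the background. Both were *Epha4*, which had 245, 118 and 177 counts in Apc1322T and 411, 262 and 379 counts in ApcMin libraries, and a log2 fold change of 0.59 (SE 0.20, unadjusted p = 0.0223 and adjusted p = 0.288 in edgeR's test). *Epha3* had the largest difference, 1.72 (SE 0.82), but 187 of its counts came from ApcMin replicate 1, against 20 and 53 in the other ApcMin libraries and between 8 and 38 in Apc1322T libraries. ApcMin replicate 1 was also the library with the highest fibroblast markers, at 2393 CPM, and their part in this difference was not tested. *Epha7* (0.36), *Efna2* (0.60) and *Efna5* (0.59) had log2 fold changes above 0 with overlapping libraries, and so did *Epha5* (0.10), *Ephb1* (0.11) and *Efna4* (0.042). *Efna3* (-0.29) and *Efnb3* (-0.17) had values below 0, with overlap. *Epha6* had 0 counts in all 6 libraries, which allows at most 0.130 CPM by the library size without TMM scaling. *Epha8* and *Epha10* had at most 3 counts in any library.

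A list of 34 genes of Eph and ephrin signalling and cleavage covered adaptors, kinases, GTPases and the proteases *Adam10* and *Mmp14*. All 34 were tested, of which 12 had a log2 fold change above 0 and 22 below, with a median of -0.049, and 0 passed with edgeR or DESeq2. An unadjusted p under 0.05 was found with edgeR for 4 of the 34, against 15.1% of all genes tested, and 7 of the 34 were without overlap, against 21.0%. *Src*, a kinase recruited by Eph receptors and ephrin-B, was lower by a log2 fold change of -0.33 (SE 0.10, adjusted p = 0.286 in edgeR's test). *Sdcbp*, which encodes the ephrin-B binding protein syntenin, had -0.31 (SE 0.10), and *Cdc42*, a small GTPase, -0.30 (SE 0.10). Their libraries did not overlap, and those of *Ptpn13*, a phosphatase of ephrin-B, did (0.50, SE 0.21). The adjusted p of these 3 was between 0.288 and 0.331. *Adam10*, which cleaves ephrins and E-cadherin on Eph contact, had a log2 fold change of -0.10 (SE 0.098).

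The genes with the most similar profile over the 6 libraries were sought among all genes tested, by the root mean square distance of log2 CPM centred on the mean of the libraries. For *Ephb2* these were *Lrrk1* (distance 0.031), *2510009E07Rik* (0.035) and *Ncapg2* (0.040). For *Ephb3* they were *Sbk1* (0.048), *1500009L16Rik* (0.057) and *Zfp652* (0.058), and for *Efnb1* they were *1700021F05Rik* (0.038), *Fut8* (0.047) and *Hnrnph3* (0.047). None of the 9 crypt genes is among these. The distances describe 6 libraries only.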

How the data were processed

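RNA-seq libraries of adenomas from Apc1322T/+ and ApcMin/+ mice (3 each) were prepared with a directional kit and sequenced on the same lane. The authors ran Salmon on the GRCm38 transcriptome. The deposited values are estimated counts of each gene, with no normalisation. Whether Salmon was set to use strand is not given in the sources used here. Of the deposited values, 36.7% are not whole numbers, and they were rounded.

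GENCODE M21 gave symbols for 34582 of 34866 identifiers. Genes were kept by filterByExpr (minimum count 10, minimum total 15), normalised by TMM and tested in edgeR 4.0.16 (R 4.3.3; robust quasi-likelihood F test). P-values were adjusted over all genes tested (Benjamini-Hochberg), and 0.01 was the threshold. DESeq2 1.42.0 and limma 3.58.1 (voom) were alternatives. Log2 CPM used a prior count of 2. Standard errors came from the fold change and its F statistic, and 95% intervals from the same error and degrees of freedom. Fold changes are ApcMin minus Apc1322T. The tests were checked on simulated counts.

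The 9 genes and the lists were chosen with earlier results of these data known. The genes named are the 9, the rest of the family, the 4 signalling genes of smallest p and the 3 nearest profiles of *Ephb2*, *Ephb3* and *Efnb1*. *Adam10* and the promoter box were added after their values were seen. Replicate numbers 1 to 3 occur in both genotypes but come from different mice. Depth was between 23132461 and 33518324 estimated counts, and for abundant genes the spread between mice sets the precision. No libraries were duplicates (chi-square per gene at least 23.3).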

Additional observations from a re-analysis of the deposited data

How the results depend on the processing

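In all settings run, 0 of the 9 Eph and ephrin genes passed the threshold between the genotypes. Over all genes tested, 0 passed with edgeR, against 194 with DESeq2's Wald test (125 higher and 69 lower in ApcMin), 1 without a filter on low counts, 1 at an adjusted p under 0.05 and 1 with scaling to pan-epithelial markers, and between 0 and 1 with single libraries left out. At an unadjusted p under 0.05, 2495 of all genes tested and 0 of the 9 were found with edgeR with all libraries. Without Apc1322T replicate 1, 1 of the 9 was found (*Epha1*), against 4117 of all 16851 genes tested in that fit. Without ApcMin replicate 2 it was also 1 (*Efna1*), against 2128 of all 16887 genes tested. In the other fits with a single library left out 0 of the 9 were found. Of the fold changes of the 9 genes under other settings, 115 kept their direction and 20 reversed. With scaling to pan-epithelial markers the log2 fold change became 0.27 for *Ephb2*, 0.30 for *Epha2*, 0.019 for *Efna1*, 0.16 for *Efnb1* and 0.23 for *Efnb2*, and 1 of the 9 genes was without overlap. With RLE size factors it was -0.0052 for *Ephb3*, with DESeq2 -0.011 for *Ephb3*, and with upper quartile factors 0.016 for *Ephb2* and 0.033 for *Epha2*. With single libraries left out the ranges were -0.15 to 0.12 for *Ephb2*, -0.18 to 0.22 for *Ephb3*, -0.061 to 0.27 for *Ephb6* and -0.25 to 0.10 for *Epha2*, and the other 5 genes kept their direction. The number of genes without overlap ranged from 0 to 3. It was 3 without Apc1322T replicate 1 (*Ephb4*, *Epha1* and *Efnb1*, against 47.7% of all genes tested) and 2 without ApcMin replicate 2 (*Efna1* and *Efnb2*, against 31.7%), and fewer libraries overlap less often by construction. With the mean coding transcript length the median CPM per kilobase was 23.1 for *Ephb2*, 51.1 for *Ephb3*, 22.9 for *Ephb4*, 3.29 for *Ephb6*, 61.2 for *Efna1* and 29.1 for *Efnb2*. The replicate number as a block gave 0 of the 9 genes and 0 of all genes at the threshold. Same-numbered libraries did not clearly deviate together (correlations of -0.014, 0.16 and -0.29). With 3 libraries per genotype this cannot decide whether the numbers stand for a shared litter or preparation. Where a setting changed a value, the cause was not tested.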
